A study of Mus with 14 samples.

Results

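Gata1, Gata2, Klf1, Zfpm1, Tal1, Nfe2, Gfi1b and Fli1 encode the transcription factors and the GATA cofactor best known for directing red cell and platelet formation. These 8 genes, listed by name, were taken from the 32285 genes counted in each of 14 single-cell RNA-seq libraries and were followed by mouse, by genotype and by lineage. All 8 passed the filter on low counts when the cells of each library were summed. The study profiled Lin-Kit+CD45.2+ cells, a sort for progenitors derived from the test graft, from the bone marrow of 14 mice, with 1 library per mouse.

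The groups were named for the genotype of the graft. MxCre (3 mice) was the control, Dnmt3a (4 mice) was mutant for this DNA methyltransferase, and Dnmt3a;Tnfr1KO (3 mice) and Dnmt3a;Tnfr2KO (4 mice) combined it with loss of TNF receptor 1 or 2. Mx-Cre is a recombinase switched on by interferon in blood cells and other tissues, and the genotype labels name it for the controls alone. Recipients were given poly(I:C), an inducer of interferon, once, 1 month after a first transplant. Test cells had been mixed 1 to 1 with CD45.1+ competitor marrow in aged, lethally irradiated hosts. Marrow was then moved to second aged hosts and collected 20 weeks later. The labels do not state which Dnmt3a allele was used or whether mice of a group had separate donors, so p-values measure the spread between these mice.

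In the bone marrow, multipotent progenitors give rise to a shared megakaryocyte and erythroid route. Gata2 acts in stem cells, early progenitors and mast cells and is replaced at its target sites by Gata1 as red cells mature. Tal1 joins the GATA factors in DNA-bound complexes, Zfpm1 (FOG1) binds them directly, Klf1 drives the red cell program, Gfi1b represses genes in both lineages, Nfe2 is needed for platelet release, and Fli1, an ETS factor, acts in megakaryocytes and opposes Klf1.

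The genes lie on 7 chromosomes of the mouse assembly GRCm38.p6. Gata1 (ENSMUSG00000031162) spans chrX:7959260-7976663 and Gata2 (ENSMUSG00000015053) spans chr6:88193891-88207032. Klf1 (ENSMUSG00000054191, chr8:84901982-84905291) and Zfpm1 (ENSMUSG00000049577, chr8:122281856-122337862) share a chromosome. Tal1 (ENSMUSG00000028717) is at chr4:115056426-115071755 and Nfe2 (ENSMUSG00000058794) at chr15:103248212-103258403. Gfi1b (ENSMUSG00000026815) is at chr2:28609450-28621982 and Fli1 (ENSMUSG00000016087) at chr9:32422204-32543432. The files count whole genes from their 3′ ends, so isoforms are not separated.

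After filtering, 66895 cells remained, 1924 to 7265 per library, with a median of 10617.5 to 39097.5 unique molecular identifiers (UMIs, counted RNA molecules) per cell. The library Dnmt3a 1 kept 26.5% of its barcodes and the others 63.2% to 91.6%. Pairs of libraries shared 1 to 15 cell barcodes, at most 0.297% of the smaller library. A cell was given a lineage when it held UMIs of at least 3 of 8 fixed markers of that lineage and of no other lineage as many; none of the 8 transcription factors was a marker. This gave 5502 erythroid-like, 2763 megakaryocyte-like, 636 basophil/mast-like and 3351 stem and multipotent progenitor (HSC/MPP)-like cells, and left 15415 cells unassigned. Dnmt3a 4 stood apart with 2108 B-lymphoid-like cells. Tnfrsf1b was lower in the Tnfr2KO mice than in the Dnmt3a mice, at 4.77 ± 0.66 against 14.9 ± 1.75 CPM, UMIs of a gene per 1e6 UMIs summed (SD, n = 4 and 4; edgeR adjusted p = 0.00057). Tnfrsf1a was 36.1 ± 2.51 CPM (n = 3) in the Tnfr1KO-labelled mice and 47.1 ± 8.49 CPM (n = 4) in the Dnmt3a mice (edgeR adjusted p = 0.596), so directions drawn from that group rest on its label. Dnmt3a, the gene altered in all mutant groups by their labels, was 25.3 ± 4.82 CPM in MxCre, 33.4 ± 4.25 in Dnmt3a, 20.9 ± 1.65 in the Tnfr1KO-labelled group and 22.4 ± 0.83 CPM in Tnfr2KO (SD, n = 3, 4, 3 and 4). Every Dnmt3a mouse was above every double mutant mouse. The log2 fold change of the Tnfr1KO-labelled mice against the Dnmt3a mice was -0.48 (edgeR adjusted p = 0.0469). Leaving out 1 mouse ended this call in 10 of 14 cases (log2 fold change -0.52 to -0.44; edgeR adjusted p up to 0.189), and so did kept doublets (0.0545), no count filter (0.0736), the 2 groups alone (0.139) and the replicate block (0.0904). By edgeR the differences of Dnmt3a from MxCre (0.31; 0.0806) and of Tnfr2KO from Dnmt3a (-0.36; 0.0625) did not pass. DESeq2 gave adjusted p of 0.000985, 0.0376 and 0.00841 for the 3 comparisons. The 3′ tags of Tnfrsf1a or Dnmt3a need not lie in the altered part of the gene.

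The first question was where each factor was found. Gata1 was highest in erythroid-like cells, with a median over the 14 mice of 113 CPM (93.9 to 137). It stood at 56.7 CPM in megakaryocyte-like cells (13 mice with at least 20 such cells), 49.4 CPM in basophil/mast-like cells (12 mice), 12.4 CPM in HSC/MPP-like cells and 0.363 CPM in monocyte-like cells. The erythroid-like level exceeded the megakaryocyte-like level in 13 of 13 mice with no overlap of the ranges, whereas megakaryocyte-like and basophil/mast-like levels overlapped (higher in 8 of 11 mice).

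Gata2 had another order. Its median was 474 CPM in basophil/mast-like cells, 203 CPM in megakaryocyte-like cells, 116 CPM in HSC/MPP-like cells and 102 CPM in erythroid-like cells. Basophil/mast-like cells were above megakaryocyte-like cells in 11 of 11 mice without overlap. HSC/MPP-like and erythroid-like cells could not be ordered, since the former were higher in 9 of 14 mice and the ranges overlapped. Among unassigned cells Gata2 was 1 of the 10 genes that stood out most, the sole such place for any of the 8 factors.

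Klf1 had the narrowest distribution of the 8 when read as the origin of its UMIs. Its median was 185 CPM in erythroid-like cells, 22.3 CPM in basophil/mast-like cells, 13.7 CPM in megakaryocyte-like cells and 3.48 CPM in HSC/MPP-like cells. Erythroid-like cells were above basophil/mast-like cells in 12 of 12 mice without overlap. On average 79.2% of a library's Klf1 UMIs came from erythroid-like cells (57.4% to 89.9%), which held 8.81% of all UMIs. The same share was 52.9% for Gata1 (31.7% to 72.4%) and 48.4% for Gfi1b (26.01% to 69.5%).

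Zfpm1 was highest in megakaryocyte-like cells at a median of 270 CPM, followed by erythroid-like cells at 145 CPM and HSC/MPP-like cells at 90.7 CPM. The first step held in 13 of 13 mice and the second in 14 of 14, although the ranges overlapped across mice at both. B-lymphoid-like cells also held Zfpm1, with a median of 68.9 CPM over 8 mice (20.7 to 166). In Dnmt3a 4, B-lymphoid-like cells supplied 41.8% of the library's Zfpm1 UMIs. Gata1 in B-lymphoid-like cells had a median of 0 CPM and a highest value of 3.41 CPM.

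Gfi1b followed the order of Gata1, with 75.5 CPM in erythroid-like, 45.2 CPM in megakaryocyte-like and 19.7 CPM in HSC/MPP-like cells, each step holding in 13 of 13 mice without overlap. Tal1 did not separate erythroid-like from megakaryocyte-like cells, at medians of 81.3 and 79.8 CPM with the former higher in 5 of 13 mice. Its HSC/MPP-like level was 52.0 CPM and its granulocyte-like level 14.5 CPM.

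Nfe2 was spread most evenly over the myeloid cells. Its median was 100.4 CPM in HSC/MPP-like, 98.2 CPM in megakaryocyte-like, 89.3 CPM in basophil/mast-like, 63.1 CPM in erythroid-like, 51.3 CPM in granulocyte-like and 39.6 CPM in monocyte-like cells. The first 3 lineages overlapped and could not be ordered. Granulocyte-like cells supplied 16.1% to 53.8% of a library's Nfe2 UMIs.

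Fli1 was lowest in erythroid-like cells, where Klf1 was highest. Its median was 200 CPM in megakaryocyte-like cells, 137 CPM in B-lymphoid-like cells, 85.1 CPM in HSC/MPP-like cells, 63.8 CPM in granulocyte-like cells, 50.7 CPM in monocyte-like cells and 18.3 CPM in erythroid-like cells. The erythroid-like level was below the monocyte-like level in 14 of 14 mice without overlap. Outside erythroid-like cells Klf1 also fell from megakaryocyte-like over HSC/MPP-like and granulocyte-like to monocyte-like cells (medians of 13.7, 3.48, 1.48 and 0.516 CPM). Granulocyte-like cells, with 38.2% of all UMIs, supplied 39.6% of Fli1 UMIs (18.4% to 56.4%) and megakaryocyte-like cells 10.7%. Over 91 lineage-by-library sums, the Pearson correlation on the log2(CPM + 1) scale was -0.49 between Klf1 and Fli1, 0.92 between Klf1 and Gata1, and 0.94 between Gata1 and Gfi1b. The sums share libraries and lineages, so these are descriptions without a test.

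**Figure D1:**
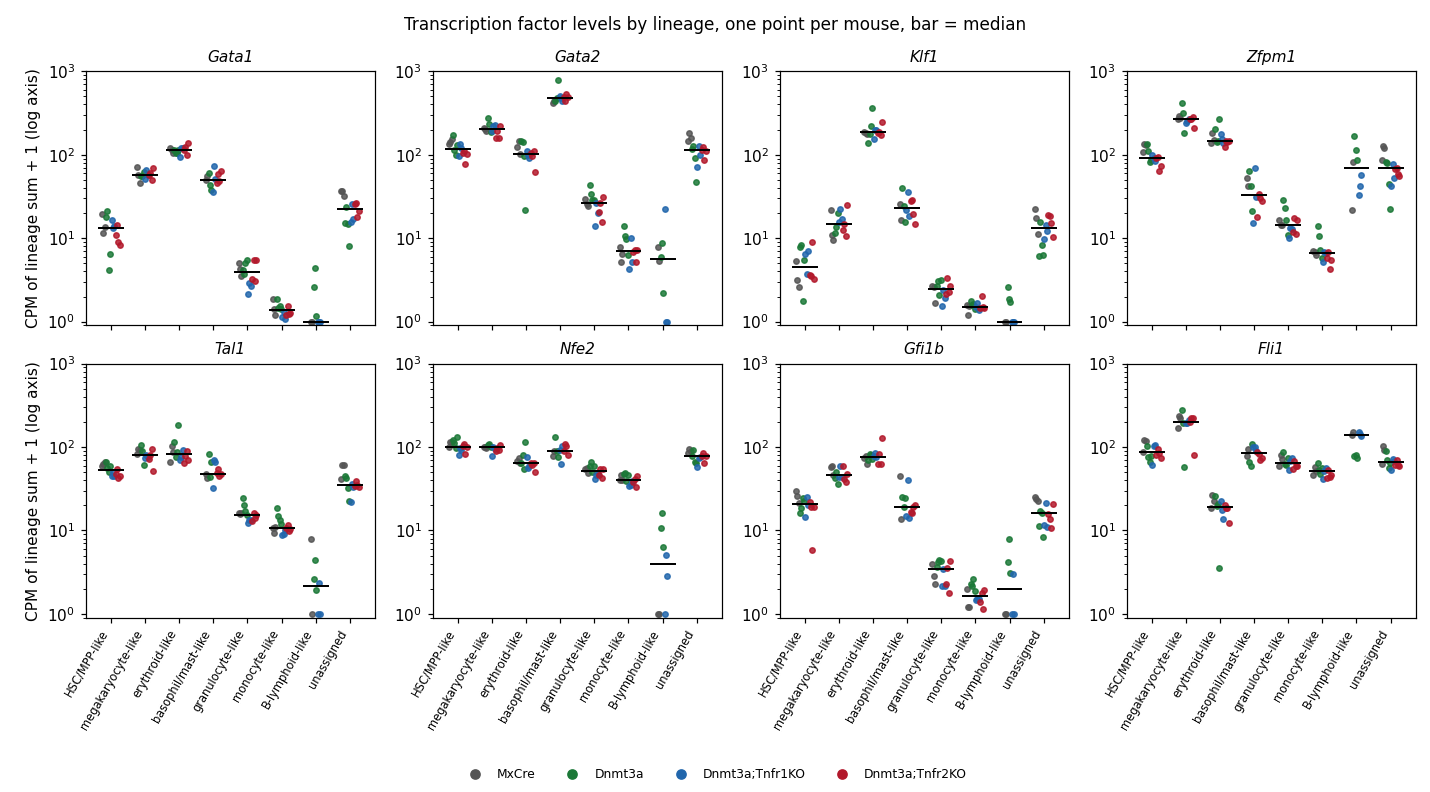
CPM + 1 of each of the 8 genes on a log axis by marker-gated lineage; each point is the sum of 1 mouse with at least 20 cells, coloured by group, and bars are medians. Gata1, Klf1 and Gfi1b are highest in erythroid-like cells, Zfpm1 and Fli1 in megakaryocyte-like cells and Gata2 in basophil/mast-like cells, and Fli1 is lowest in erythroid-like cells among the lineages shown.

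Cells with a UMI were counted after each cell was thinned to 5000 UMIs, which left out 193 erythroid-like, 35 megakaryocyte-like and 413 monocyte-like cells. Klf1 was found in a median of 53.7% of erythroid-like cells (87.1% unthinned) and Gata1 in 40.9% (77.7% unthinned). In monocyte-like cells, which should lack both, the shares were 0.219% for Klf1 (1.39% unthinned) and 0.159% for Gata1 (1.16% unthinned). The median of the libraries' median depths was 19479 UMIs in erythroid-like and 30399 UMIs in monocyte-like cells before thinning, so the deeper cells had the lower shares. Fli1 was found in 57.6% of megakaryocyte-like, 20.8% of monocyte-like and 10.4% of erythroid-like thinned cells. The erythroid-like share of Fli1 was thus below that of a cell type outside both lineages.

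Within single thinned cells, Gata1 and Klf1 were found together in a median of 22.2% of erythroid-like cells (14.3% to 33.5%). Klf1 and Fli1 were found together in 5.13% of erythroid-like cells (0.717% to 6.65%) and in 2.53% of megakaryocyte-like cells (0% to 3.75%). Zfpm1 and Fli1 shared 41.1% of megakaryocyte-like cells. Counted gene by gene, Gata1, Klf1 and Fli1 were found in 40.9%, 53.7% and 10.4% of erythroid-like cells. Zfpm1 and Fli1 were found in 69.7% and 57.6% of megakaryocyte-like cells. Whether pairs met more or less often than these shares give by chance was not tested. Remaining doublets were not tested for their part in the Klf1 and Fli1 cells.

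To follow the factors along erythroid maturation, erythroid-like cells were split by how many of the 8 erythroid markers they showed at 5000 UMIs: 3, 4, 5, or 6 and more. Gata2 had medians of 181, 132, 69.0 and 25.8 CPM over these steps, in 13, 13, 11 and 8 mice. It was lower at 6 and more markers than at 3 in 7 of 7 mice that had both, and the ranges did not overlap (155 to 275 against 0 to 48.5 CPM). Klf1 went the other way, with medians of 147, 179, 226 and 324 CPM, and was higher at the last step in 7 of 7 mice, again without overlap.

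Gata1 was flat over the same steps, at medians of 113, 106, 105 and 110 CPM, with 4 of 7 mice higher and 3 lower at the end. The ratio of Gata2 to Gata1 UMIs was accordingly 1.59, 1.46, 0.679 and 0.238. Tal1 had medians of 70.0, 72.5, 100 and 139 CPM and was higher at the end in 6 of 7 mice, as was Zfpm1 with 147, 139, 152 and 232 CPM. Gfi1b moved little, from 69.2 to 87.5 CPM (higher in 5 of 7 mice).

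Nfe2 had a dip, with medians of 80.9, 76.4, 48.3 and 77.3 CPM. It was lower at 5 markers than at 3 in 10 of 10 mice and higher at 6 and more than at 5 in 6 of 7. Fli1 had medians of 27.8, 14.3, 6.90 and 2.44 CPM and was lower at 5 markers than at 3 in 10 of 10 mice, but its last steps were near the level of a single UMI and are not ordered further. These steps order cells by marker content, not by time, and the number of markers found also depends on how strongly each cell transcribes them.

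**Figure D2:**
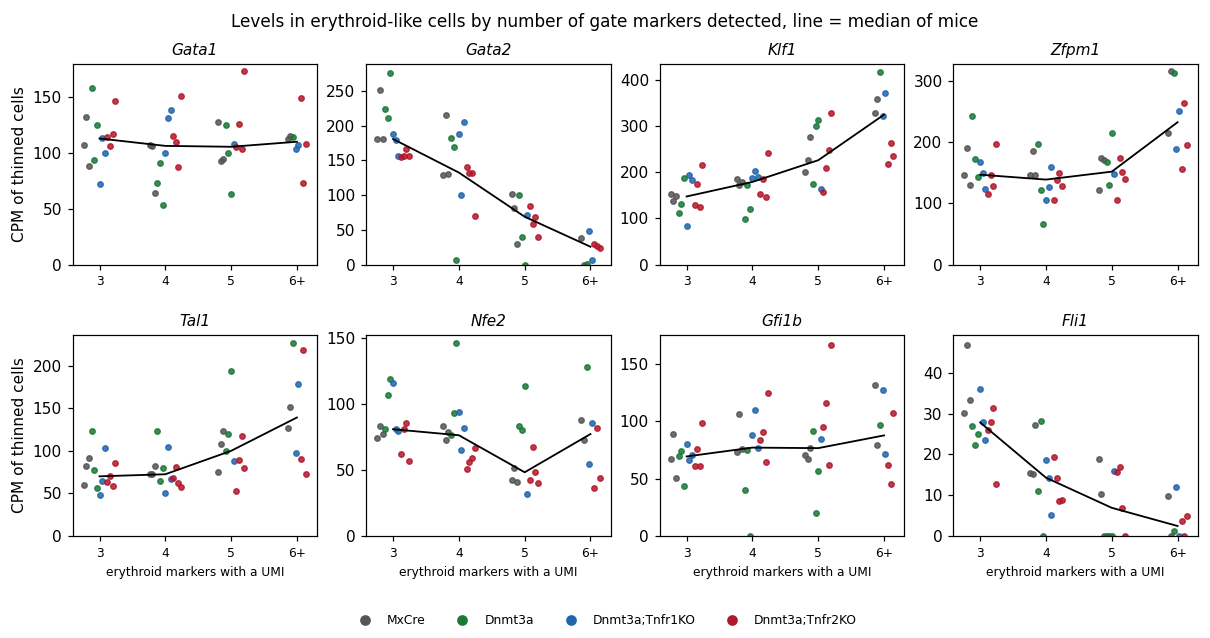
CPM of each gene in erythroid-like cells thinned to 5000 UMIs, by the number of erythroid markers with a UMI; points are mice and the line joins the medians. Gata2 goes from a median of 181 to 25.8 CPM and Klf1 from 147 to 324 CPM while Gata1 stays between 105 and 113 CPM.

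The makeup of erythroid-like cells differed most in 1 mouse. In Dnmt3a 4, 59.1% of thinned erythroid-like cells showed 6 or more markers, against 4.73% to 20.2% in the other 13 libraries. Its erythroid-like cells held 367 CPM of Klf1, 266 CPM of Zfpm1, 184 CPM of Tal1, 115 CPM of Nfe2, 21.0 CPM of Gata2 and 2.54 CPM of Fli1. The other 13 libraries lay at 139 to 246, 124 to 201, 62.6 to 115, 49.6 to 79.1, 60.4 to 145 and 11.3 to 25.3 CPM for the same genes, so Dnmt3a 4 was outside each of these ranges. Its Gata1 (113 CPM) and Gfi1b (70.0 CPM) were inside in these unscaled CPM. The edgeR fits scaled this erythroid-like sum by a TMM factor of 0.519, and the other 13 by 0.982 to 1.32. A lower factor raises the scaled level, so neither gene can be called inside on the scale of the fits. Genes chosen after their values were seen marked the same cells: Hbb-bt, a beta globin, was at 63320 CPM against 172 to 5027 CPM elsewhere, Alas2, a haem synthesis enzyme, at 1222 against 2.46 to 113 CPM, and Kit, which the sort selected for, at 16.2 against 70.6 to 239 CPM. Dnmt3a;Tnfr2KO 4, the library with 20.2%, held 1 end of several ranges of the other 13. Without it as well, 12 libraries lay at 139 to 219 CPM for Klf1 and 90.3 to 145 CPM for Gata2. Gata1 then ran from 93.9 to 122 CPM, where its top had been 137 CPM. Gfi1b ran from 61.6 to 84.5 CPM, where its top had been 128 CPM.

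Megakaryocyte-like cells also had libraries that stood apart. Fli1 was 56.5 CPM in Dnmt3a 3 (40 cells) and 79.5 CPM in Dnmt3a;Tnfr2KO 4 (98 cells), against 170 to 275 CPM (median 210) in the other 11 libraries. In the same sums Pf4, a platelet chemokine and itself a gate marker, was 825 and 741 CPM against 2657 to 6068 CPM. Cpa3, a mast cell protease, was 288 and 199 CPM against 6.16 to 82.2 CPM. Both genes were chosen after their values were seen, and the part of a mixed gate in the Fli1 values was not tested. Zfpm1 (179 and 211 CPM) and Tal1 (59.2 and 50.4 CPM) were also below the other 11 libraries, which lay at 240 to 411 and 71.0 to 106 CPM. Gfi1b was 35.0 CPM in Dnmt3a 3, below the 37.5 to 58.5 CPM of those 11, and 47.1 CPM in Dnmt3a;Tnfr2KO 4, while Klf1 in the latter (23.9 CPM) was above their 8.54 to 21.1 CPM. Gata1 (60.6 and 68.9 CPM), Gata2 (188 and 223 CPM) and Nfe2 (98.2 and 106 CPM) were inside the range of the 11.

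The design's main question was whether the factors differed by genotype. With all cells of a library summed, each of the 8 genes had its highest group mean in the MxCre controls, and none passed the test in any of 6 comparisons. In such sums, fewer cells of a type and less RNA per cell cannot be told apart. The 3 comparisons against MxCre share those 3 mice and are not independent of each other.

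Gata1 in all cells was 35.6, 24.7 and 26.2 CPM in the MxCre mice and 17.4, 20.9, 8.01 and 7.98 CPM in the Dnmt3a mice. It was 5.14, 27.7 and 12.6 CPM in the Tnfr1KO-labelled mice and 14.2, 28.2, 8.17 and 13.9 CPM in the Tnfr2KO mice. Every Dnmt3a mouse was below every control, while 1 mouse of each double mutant group reached the control range. The log2 fold change of Dnmt3a against MxCre was -1.20 (SE 0.49; edgeR adjusted p = 0.165).

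Gata2 was 82.8, 80.8 and 105 CPM in the MxCre mice and 65.1, 71.4, 41.5 and 25.8 CPM in the Dnmt3a mice. The Tnfr1KO-labelled mice had 23.8, 62.3 and 37.9 CPM and the Tnfr2KO mice 46.4, 59.5, 30.4 and 47.5 CPM. All 11 mutant mice were below all 3 controls, and the log2 fold changes were -0.90 (SE 0.33), -1.02 and -0.84 with edgeR adjusted p of 0.124, 0.223 and 0.253.

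Zfpm1 behaved alike. It was 70.4, 76.3 and 103 CPM in the MxCre mice, 64.0, 61.3, 24.3 and 35.4 CPM in the Dnmt3a mice, 18.5, 55.8 and 30.3 CPM in the Tnfr1KO-labelled mice and 35.7, 55.5, 25.4 and 30.1 CPM in the Tnfr2KO mice. The groups again did not overlap with the controls, with log2 fold changes of -0.95 (SE 0.35), -1.16 (SE 0.39) and -1.07 (SE 0.35) and edgeR adjusted p of 0.131, 0.200 and 0.206.

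Tal1 averaged 41.4 ± 7.79 CPM in MxCre (SD, n = 3), 27.8 ± 8.93 in Dnmt3a (n = 4), 21.3 ± 7.85 in the Tnfr1KO-labelled group (n = 3) and 23.1 ± 5.59 in Tnfr2KO (n = 4). Every double mutant mouse was below every control, and 1 of the 4 Dnmt3a mice (37.3 CPM) was above the lowest control (35.0 CPM). Gfi1b averaged 21.4 ± 2.81, 10.7 ± 4.75, 11.3 ± 8.93 and 11.3 ± 5.64 CPM in the same order of groups and sizes. Klf1 ran from 4.64 to 41.6 CPM over the 14 libraries, the widest spread of the 8 as a ratio of highest to lowest (8.96), and all 3 mutant groups overlapped with the controls (29.3 ± 10.8, 16.6 ± 6.77, 19.2 ± 16.5 and 18.4 ± 10.9 CPM).

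Nfe2 and Fli1 had the smallest fold changes of Dnmt3a against MxCre. Nfe2 averaged 69.0 ± 5.17 CPM in MxCre (SD, n = 3) and 57.8 ± 9.91 CPM in Dnmt3a (n = 4), a log2 fold change of -0.34 (SE 0.12; edgeR adjusted p = 0.121). Fli1 averaged 80.4 ± 20.4 and 64.9 ± 9.23 CPM, a log2 fold change of -0.39 (SE 0.13; edgeR adjusted p = 0.0922), the lowest adjusted p of the 8. The control MxCre 1 (57.5 CPM of Fli1) was within the range of the mutant mice, whereas MxCre 2 and 3 (87.0 and 96.7 CPM) were above it.

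**Figure D3:**
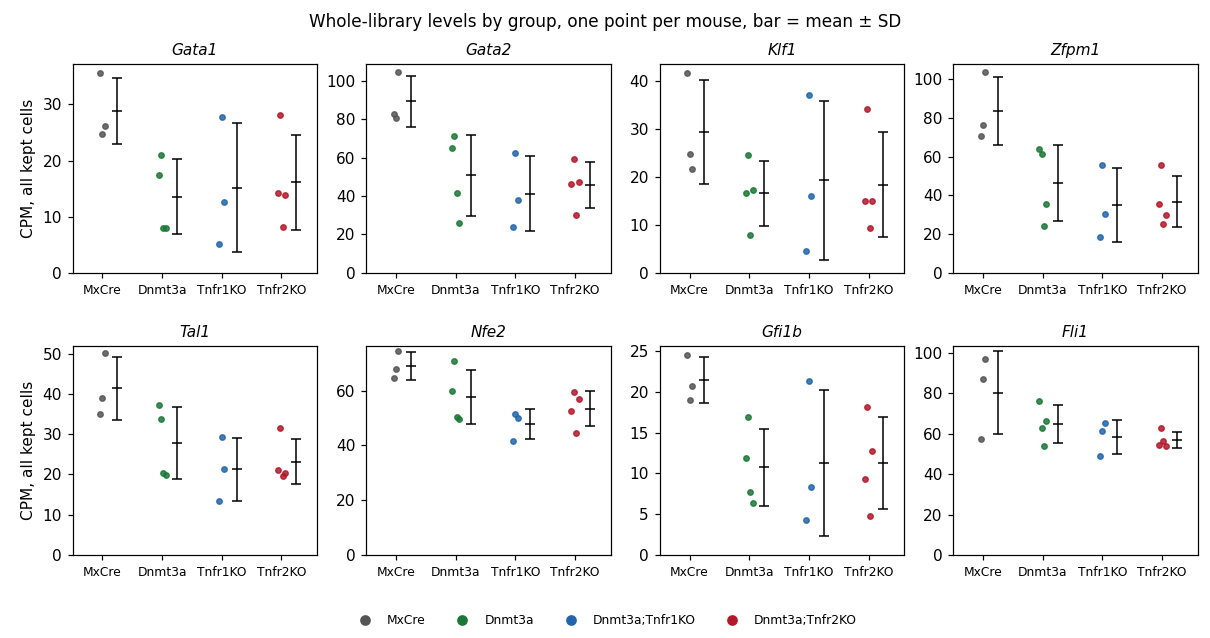
CPM of each gene with all kept cells of a library summed, by group; points are mice and bars the mean ± SD. The MxCre mean is the highest of the 4 groups for all 8 genes, and 11 of 11 mutant mice lie below all controls for Gata2 and Zfpm1.

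By edgeR, 0 of 8 genes passed an adjusted p of 0.05 in Dnmt3a against MxCre, where 2.45% of all 15648 genes tested did. The count was also 0 for the Tnfr1KO-labelled group against MxCre (0.371% of all genes) and for Tnfr2KO against MxCre (0.46%). At an unadjusted p under 0.05 the counts were 7, 5 and 4 of 8, where 23.4%, 12.05% and 15.6% of all genes were under it. The edgeR count over all genes in Dnmt3a against MxCre went from 383 to between 1 (without MxCre 2) and 1235 (without Dnmt3a 2) when 1 mouse was left out. The other 2 counts went from 58 to between 6 (without Tnfr1KO-labelled mouse 3) and 240 (without Dnmt3a 4), and from 72 to between 24 (without MxCre 3) and 161 (without Dnmt3a 4). DESeq2 called Gata2, Zfpm1 and Fli1 lower in Dnmt3a (adjusted p = 0.0412, 0.0470 and 0.0379), and Zfpm1 and Tal1 lower in the Tnfr1KO-labelled mice (0.0439 and 0.0410). It called 0 of 8 in Tnfr2KO, and over all genes 9.52%, 3.23% and 2.68% in the 3 comparisons.

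All 8 log2 fold changes were negative in each of the 3 comparisons, with medians of -0.92, -0.85 and -0.74 against 0.03, 0.01 and 0.00 over all genes. Every Dnmt3a mouse was below every control for Gata1, Gata2, Zfpm1 and Gfi1b, 4 of 8 genes where the share of all genes was 6.26%. For the Tnfr1KO-labelled mice this held for Gata2, Zfpm1, Tal1 and Nfe2 (16.3% of all genes), and for the Tnfr2KO mice for these 4 and Gfi1b (12.1%). Both the members and all genes were read here in CPM without the TMM factors of the fits.

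Mutant groups were compared with each other in the same all-cell sums. The 8 log2 fold changes ran from -0.22 to 0.38 (median -0.02) for the Tnfr1KO-labelled group against Dnmt3a, from -0.12 to 0.45 (median 0.07) for Tnfr2KO against Dnmt3a, and from -0.04 to 0.18 (median 0.10) for Tnfr2KO against the Tnfr1KO-labelled group. By edgeR 0 of 8 passed in each, with 0 at an unadjusted p under 0.05 and 0 by DESeq2; over all genes 0.575%, 0.869% and 0.192% were called, and 19.8%, 22.8% and 3.97% were under an unadjusted 0.05. Leaving out 1 mouse moved these counts of called genes from 90 to between 8 (without Tnfr1KO-labelled mouse 3) and 321 (without Dnmt3a 2), from 136 to between 32 (without Dnmt3a;Tnfr2KO 1) and 800 (without Dnmt3a 2), and from 30 to between 18 (without Dnmt3a;Tnfr2KO 1) and 81 (without Dnmt3a 4). No member separated any pair of mutant groups without overlap, where 18.3%, 14.2% and 2.43% of all genes had every mouse of the first group lower and 20.6%, 15.3% and 5.02% had no overlap in either direction. These overlaps were read in CPM without the TMM factors, which were 1.03 to 1.17 in Dnmt3a and 0.887 to 1.00 in the double mutants. The part of scaling in these shares was not tested, so they do not give a count of genes that fell.

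The shares of the lineages that hold these factors were then set beside them. Megakaryocyte-like cells made up 10.1 ± 3.91% of kept cells in MxCre (SD, n = 3), 2.87 ± 3.05% in Dnmt3a (n = 4), 2.68 ± 1.11% in the Tnfr1KO-labelled group (n = 3) and 3.26 ± 1.49% in Tnfr2KO (n = 4). HSC/MPP-like cells made up 12.9 ± 5.98%, 3.93 ± 2.43%, 3.18 ± 2.28% and 3.25 ± 1.10%. For both lineages every mutant mouse was below every control. Shares within a library depend on each other. Monocyte-like shares were 11.6 ± 3.09% in MxCre and 23.0 ± 8.29%, 24.6 ± 5.83% and 20.0 ± 3.68% in the mutant groups (SD, same order). B-lymphoid-like cells made up 38.9% of Dnmt3a 4. The part of these shares in the lower ones was not tested. With the gates applied after thinning to 5000 UMIs, megakaryocyte-like shares were 5.14 ± 2.21% in MxCre (SD, n = 3) and 1.49 ± 1.63% in Dnmt3a (n = 4), which overlapped (exact permutation p = 0.0857), a difference of -3.65 percentage points beside -7.27. The HSC/MPP-like difference of Dnmt3a from MxCre was -4.16 points after thinning, without overlap (exact permutation p = 0.0286), beside -8.96. For the Tnfr1KO-labelled group and Tnfr2KO the thinned differences were -3.70 and -3.43 points (megakaryocyte-like) and -4.45 and -4.20 points (HSC/MPP-like).

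Exact two-sided permutation tests gave p = 0.0571, 0.1 and 0.0286 for megakaryocyte-like shares and 0.0286, 0.1 and 0.0286 for HSC/MPP-like shares. After adjustment over the 4 lineages the smallest exact permutation p was 0.0571. A comparison of 3 against 3 mice cannot go below 0.1 and the others not below 0.0286. Erythroid-like shares were 12.9 ± 4.86% (SD, n = 3), 7.54 ± 4.64% (n = 4), 7.88 ± 5.83% (n = 3) and 7.62 ± 5.02% (n = 4) and overlapped between all groups (exact permutation p = 0.229, 0.4 and 0.229 against MxCre). Single controls carried much of these sizes. Without MxCre 3 the megakaryocyte-like differences from MxCre went from -7.27, -7.46 and -6.89 points to -5.03, -5.22 and -4.64, and the HSC/MPP-like ones from -8.96, -9.70 and -9.63 to -5.52, -6.26 and -6.19. Without MxCre 1 the erythroid-like differences went from -5.38, -5.04 and -5.30 points to -2.76, -2.43 and -2.68. With all mice but gates after thinning they were -2.69, -2.74 and -3.40 points.

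**Figure D4:**
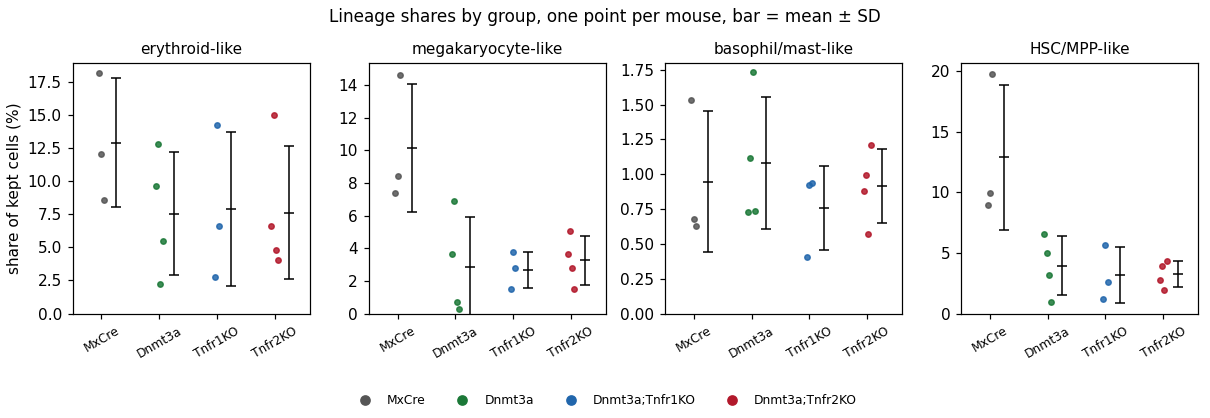
Share of kept cells (%) in each of the 4 lineages tested, by group; points are mice and bars the mean ± SD. Megakaryocyte-like and HSC/MPP-like shares of all 11 mutant mice lie below the 3 controls, and erythroid-like and basophil/mast-like shares overlap.

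Genotypes were then compared within lineages. Of 32 pairs of a gene and a lineage (erythroid-like, megakaryocyte-like, basophil/mast-like and HSC/MPP-like), edgeR called 0 in each of the 6 comparisons. At an unadjusted p under 0.05 there were 2, 2 and 7 pairs against MxCre for Dnmt3a, the Tnfr1KO-labelled group and Tnfr2KO, and 0, 1 and 0 between mutant groups. Over all 38962 pairs of a gene and a lineage tested, 15.4%, 4.58% and 5.19% against MxCre and 11.4%, 12.3% and 3.03% between mutant groups were under it. DESeq2 called 1 pair for Dnmt3a against MxCre (2.01% of all pairs), 1 for Tnfr2KO against MxCre (0.459%) and 0 for the Tnfr1KO-labelled group against MxCre (0.239%) and between mutant groups (0.914%, 0.742% and 0.077%).

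In erythroid-like cells Gata1 was 118, 114 and 102 CPM in the MxCre mice and 114, 105, 105 and 113 CPM in the Dnmt3a mice. The Tnfr1KO-labelled mice had 93.9, 120 and 121 CPM and the Tnfr2KO mice 112, 122, 97.6 and 137 CPM. The group means thus lay between 109 and 117 CPM and all groups overlapped. The highest library was 1.46 times the lowest here, against 6.93 times in all cells. These CPM leave out the TMM factors of the fits, among them 0.519 for Dnmt3a 4, so they do not give the spread on the scale of the fits.

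Klf1 in erythroid-like cells was 188, 182 and 179 CPM in the MxCre mice and 139, 176, 219 and 367 CPM in the Dnmt3a mice. The highest value was that of Dnmt3a 4, described above. Fold changes of Dnmt3a against MxCre had a median of 0.40 on the log2 scale over the 8 genes, from -0.47 for Fli1 to 0.83 for Tal1 (SE 0.47; edgeR adjusted p = 0.373). Without Dnmt3a 4 the median was -0.17 and Tal1 stood at -0.07 (SE 0.17; edgeR adjusted p = 0.881), so the sign of both rests on that mouse. Over all genes tested in erythroid-like cells 0%, 0.0183% and 0.128% were called against MxCre and 0.0367%, 0.0825% and 0.0367% between mutant groups.

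The log2 ratio of Gata2 to Gata1 in erythroid-like cells was 0.06, 0.32 and -0.04 in MxCre, 0.34, 0.43, -0.15 and -2.41 in Dnmt3a, 0.23, -0.30 and -0.42 in the Tnfr1KO-labelled mice, and -0.10, -0.35, 0.17 and -1.18 in Tnfr2KO. All groups overlapped, and exact two-sided permutation tests gave p = 0.8, 0.3 and 0.257 against MxCre. The mean difference of Dnmt3a from MxCre was -0.56 with all mice and 0.09 without Dnmt3a 4. That of Tnfr2KO was -0.48 with all mice and -0.21 without Dnmt3a;Tnfr2KO 4.

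In megakaryocyte-like cells Fli1 was 170, 236 and 220 CPM in the MxCre mice, 275, 193 and 56.5 CPM in 3 Dnmt3a mice, 190, 193 and 210 CPM in the Tnfr1KO-labelled mice and 200, 223, 220 and 79.5 CPM in the Tnfr2KO mice. The library Dnmt3a 4 had 14 such cells and did not enter the fit. Zfpm1, Gata1 and Fli1 differed from MxCre by at most 0.34 on the log2 scale in size in the 3 comparisons, with edgeR adjusted p of at least 0.681. Over all 8 genes the log2 fold changes ran from -0.41 to 0.09, -0.19 to 0.45 and -0.22 to 0.10, with medians of -0.14, -0.05 and -0.10. For Fli1 the difference of Dnmt3a went from -0.34 to 0.00 without Dnmt3a 3, and that of Tnfr2KO from -0.16 to 0.07 without Dnmt3a;Tnfr2KO 4. Over all genes, 0.372%, 0.0784% and 0.372% were called in these cells against MxCre and 0.167%, 0.157% and 0.0294% between mutant groups.

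HSC/MPP-like cells held the largest within-lineage differences against MxCre by p-value. Zfpm1 was 108, 132 and 129 CPM in the MxCre mice and 89.7, 91.7, 63.6 and 72.7 CPM in the Tnfr2KO mice, which did not overlap (log2 fold change -0.57, SE 0.15; edgeR adjusted p = 0.0998). DESeq2 gave an adjusted p of 0.0473 for it. How many of all genes were without overlap in HSC/MPP-like cells was not counted. Fli1 was 87.3, 122 and 118 CPM in MxCre and 101, 74.8, 66.0 and 77.8 CPM in Dnmt3a, which overlapped in 1 mouse (log2 fold change -0.55, SE 0.16; edgeR adjusted p = 0.0620, DESeq2 0.0392).

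Of the 8 genes, 7 had a negative log2 fold change in HSC/MPP-like cells in each comparison against MxCre, with Klf1 the exception at 0.77, 0.64 and 0.27. Klf1 was near the floor there, at 0.781 to 8.05 CPM with as few as 2 UMIs in a library. The highest value was that of Dnmt3a;Tnfr2KO 3, where the other mice of that group had 2.23 to 2.61 CPM. The medians of the 8 genes were -0.29, -0.23 and -0.41. Over all genes 3.58%, 0.47% and 0.885% were called there, and 0.58%, 0.488% and 0.0461% between mutant groups. In basophil/mast-like cells the medians were -0.08, 0.12 and 0.06, and 0%, 0.0143% and 0.0143% of all genes were called against MxCre and 0.0143%, 0.0714% and 0% between mutant groups. That fit held 12 libraries. MxCre 2 and Dnmt3a 1 had too few such cells, so its only controls were MxCre 1 and MxCre 3.

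Unassigned cells were tested the same way after the data were seen. They pool cells short of 3 markers with cells tied between lineages. Ties were 4.91% to 6.16% of kept cells in the MxCre mice, where 21.7% to 29.3% were unassigned. In Dnmt3a 1, 2 and 3 ties were 9.18% to 13.3%, and at most 23.7% were unassigned. In Dnmt3a 4 they were 3.799%, with 9.46% unassigned. Ties were thus a larger part of this pool in every Dnmt3a mouse than in every control. Their part in the differences below was not tested. Gata1 in unassigned cells was 35.6, 35.7 and 31.4 CPM in the MxCre mice and 14.3, 22.4, 13.9 and 7.03 CPM in the Dnmt3a mice, without overlap. How many of all genes were without overlap there was not counted. Gata1 fell by 1.304 on the log2 scale (SE 0.28; edgeR adjusted p = 0.0289; 3.42% of all genes called). Leaving out MxCre 1, 2 or 3 or Dnmt3a 1 or 3 ended this call, with adjusted p of 0.0856, 0.102, 0.0981, 0.0599 and 0.0617 at log2 fold changes of -1.23, -1.29, -1.39, -1.25 and -1.305, and so did a fit of the 2 groups alone (-1.33; 0.0917). By edgeR no other member was called in unassigned cells in the 6 comparisons, where 0.246% and 0.285% of all genes were called in the double mutants against MxCre and 0.323%, 0.246% and 0.146% between mutant groups. DESeq2 called 6 of 8 genes lower in the unassigned cells of Dnmt3a against MxCre (Gata1, Gata2, Gfi1b, Klf1, Tal1 and Zfpm1; 9.02% of all genes) and 1 in the Tnfr1KO-labelled group against MxCre (Tal1; 1.58% of all genes), and 0 in the other 4 comparisons.

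Granulocyte-like and monocyte-like cells, also tested after the data were seen, gave 0 of 8 calls by edgeR in each of the 6 comparisons. At an unadjusted p under 0.05 there were 0, 2 and 0 genes against MxCre and 3, 0 and 1 between mutant groups in granulocyte-like cells, and 1, 1 and 0 and 3, 2 and 0 in monocyte-like cells. The shares of all genes under it were 21.1%, 3.38% and 7.65% and then 23.9%, 23.1% and 3.73% in granulocyte-like cells, and 21.2%, 3.19% and 6.69% and then 19.9%, 24.9% and 2.99% in monocyte-like cells. Over all genes 3.06%, 0.125% and 0.324% were called in granulocyte-like cells against MxCre and 4.22%, 2.12% and 0.258% between mutant groups. In monocyte-like cells it was 2.54%, 0.117% and 0.242%, and 1.68%, 2.63% and 0.273%. DESeq2 was not run on these cells.

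All-cell values were then recomputed with the lineage makeup of every library fixed at the mean over libraries, keeping each library's own expression within erythroid-like, HSC/MPP-like, granulocyte-like and monocyte-like cells and within the remaining cells as a whole. By limma on log2(CPM + 1), the median log2 fold change of the 8 genes against MxCre was -0.24, -0.34 and -0.31 at fixed makeup, beside -0.86, -1.04 and -0.87 at the observed makeup. With megakaryocyte-like and basophil/mast-like cells also fixed, an alternative chosen after the data were seen in which 2 libraries had only 14 cells of a fixed lineage, the medians were -0.10, -0.27 and -0.20.

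At fixed makeup Gata1 was -0.42 (SE 0.15) in Dnmt3a against MxCre with a limma adjusted p of 0.103, beside -1.13 (SE 0.50) at the observed makeup. Klf1 was 0.10 (SE 0.21), beside -0.83 (SE 0.57). Erythroid-like cells supplied 79.2% of Klf1 UMIs, and there the edgeR change of Klf1 was -0.22 (SE 0.18) without Dnmt3a 4. The fixed-makeup value of Klf1 without that mouse is not given here. Zfpm1 was -0.61 (SE 0.19) in the Tnfr1KO-labelled group, beside -1.35 (SE 0.41), and -0.57 (SE 0.18) in Tnfr2KO, beside -1.21 (SE 0.39), with limma adjusted p of 0.452 in both at fixed makeup. Tal1 had the lowest adjusted p of the 8 genes at fixed makeup, and it came between mutant groups: -0.41 (SE 0.13; limma adjusted p = 0.0714, and 0.0607 with 6 lineages fixed) in the Tnfr1KO-labelled group against Dnmt3a, beside -0.38 (SE 0.27) at the observed makeup. Leaving out 1 mouse at a time gave limma adjusted p from 0.0420 (without Dnmt3a 3, when it was called, as were 9.39% of all genes) to 0.262 (without Tnfr1KO-labelled mouse 1). In Tnfr2KO against Dnmt3a Tal1 was -0.29 (SE 0.12; limma adjusted p = 0.142), and against MxCre it was -0.06, -0.47 and -0.35. These limma values and the counts below carry no TMM factor. All-cell factors were 1.03 to 1.17 in Dnmt3a, 0.887 to 0.982 in the Tnfr1KO-labelled mice and 0.908 to 1.00 in Tnfr2KO. With TMM, the lowest all-cell edgeR change of any member against Dnmt3a was -0.22 in the Tnfr1KO-labelled group and -0.12 in Tnfr2KO. The part of scaling in the limma values was not tested.

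By limma 0 of 8 were called at fixed makeup in the 6 comparisons, with 1, 4 and 3 at an unadjusted p under 0.05 against MxCre and 2, 1 and 0 between mutant groups. Of all genes, 25.2%, 5.11% and 6.61% and then 26.7%, 28.2% and 3.23% were under it. Over all genes 5.32%, 0.23% and 0.339% were called against MxCre and 5.32%, 5.22% and 0.211% between mutant groups. These shares hung on single mice: when 1 mouse was left out, the 833 calls for Dnmt3a against MxCre became 4 (without MxCre 2) to 1690 (without Dnmt3a 2). The 832 calls for the Tnfr1KO-labelled group against Dnmt3a became 17 (without Tnfr1KO-labelled mouse 3) to 1740 (without Dnmt3a 2), and the 817 for Tnfr2KO against Dnmt3a 29 (without Dnmt3a;Tnfr2KO 1) to 2012 (without Dnmt3a 2). The 832 and 817 were 51 and 127 with the replicate block and 114 and 62 without the filter on low values. For the double mutants against MxCre and against each other, 36, 53 and 33 calls became 11 to 69, 22 to 92 and 18 to 44. With 6 lineages fixed 0 of 8 were again called, where 5.03%, 0.173% and 0.3% and then 5.75%, 5.1% and 0.211% of all genes were. DESeq2 does not take such recomputed values and was not run on them. The remaining cells were fixed as 1 pool, so shifts within that pool are still in these values.

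**Figure D5:**
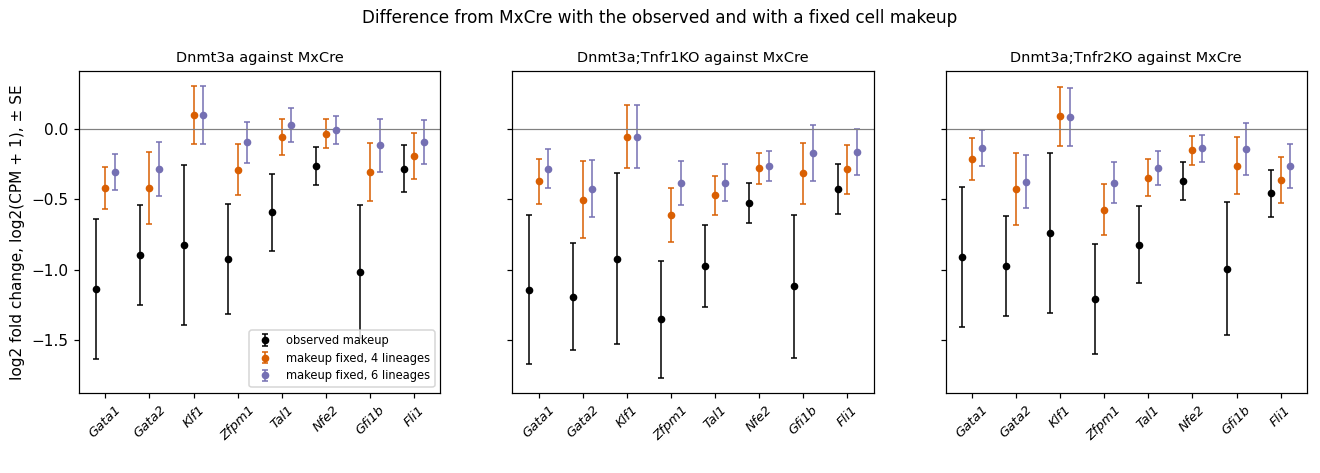
Log2 fold change ± SE (limma, log2(CPM + 1)) of each gene against MxCre, with the observed lineage makeup (black), 4 lineages fixed (orange) and 6 lineages fixed (purple). The medians in Dnmt3a go from -0.86 to -0.24 and -0.10.

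Genes that work with these factors or lie downstream were read from 6 lists in the all-cell edgeR fits. Among 16 cofactors of the GATA and Tal1 complexes (such as Lmo2, Ldb1 and Runx1), 0 were called against MxCre, with median log2 fold changes of 0.12, -0.05 and -0.04. Among 16 other erythroid and megakaryocyte regulators (such as Myb, Bcl11a and Meis1) 0 were called, with medians of -0.06, -0.25 and -0.36. Among 19 of 20 erythroid target genes that could be tested 0 were called, with medians of 0.29, -0.63 and -0.97; the first was -1.20 without Dnmt3a 4, so its sign rests on that mouse. Summed globin RNA was 20313 CPM in Dnmt3a 4 and 234 to 2605 CPM in the other 13 libraries. For mast cell and basophil genes 0 of 10 were called, with medians of -0.24, -0.24 and 0.01.

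Megakaryocyte target genes had the lowest medians, -1.05, -1.57 and -1.34 over 15 of 16 genes tested. Of these, 2, 1 and 1 were called lower by edgeR, where 2.45%, 0.371% and 0.46% of all genes were called. Cd9, a tetraspanin of the platelet membrane, averaged 124 CPM in MxCre and 63.3, 51.6 and 57.3 CPM in the 3 mutant groups (log2 fold change -1.05, -1.16 and -0.99; edgeR adjusted p = 0.0305, 0.0375 and 0.0453). Rgs18, a regulator of platelet signalling, fell by 0.86 on the log2 scale in Dnmt3a (SE 0.20; edgeR adjusted p = 0.0434), from 157 to 91.8 CPM. These calls hung on single mice. Leaving out 1 mouse at a time ended the Cd9 call in 6, 7 and 9 of 14 cases, among them MxCre 2 and MxCre 3 each time, with edgeR adjusted p up to 0.132, 0.204 and 0.285 and log2 fold changes between -1.26 and -0.89. It ended the Rgs18 call in 12 of 14 cases, all but Dnmt3a 2 and Dnmt3a 4 (edgeR adjusted p up to 0.176; log2 fold change -1.04 to -0.70). A fit of the 2 groups alone ended the Cd9 and Rgs18 calls in Dnmt3a (edgeR adjusted p = 0.125 and 0.126). The replicate block ended that of Rgs18 (0.0541), and RLE scaling and no count filter ended that of Cd9 in Tnfr2KO (0.0518 and 0.0557). DESeq2 called all of them (adjusted p of 0.00111 or less). Megakaryocyte-like shares moved with these values, and their part in them was not tested.

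Among 10 regulators of other lineages 0 were called against MxCre, with medians of 0.63, 0.57 and 0.30. In Tnfr2KO against Dnmt3a, where 0.869% of all genes were called, 2 of them were lower: Ebf1, a B-cell factor, at 0.935 against 127 CPM (log2 fold change -6.84, SE 1.41) and Pax5 at 0.0520 against 16.5 CPM (edgeR adjusted p = 0.0439 for both). Both calls were lost in 11 of 14 cases when 1 mouse was left out, Dnmt3a 4 among them, with edgeR adjusted p up to 0.155 and 0.149. Log2 fold changes then ran from -7.32 to -4.28 for Ebf1 and from -8.76 to -5.18 for Pax5, and the smallest in size were those without Dnmt3a 4 (edgeR adjusted p = 0.0657 and 0.0634). A fit of the 2 groups alone also ended both calls (edgeR adjusted p = 0.186 and 0.178), and DESeq2 kept them (adjusted p = 4.02e-07 and 2.70e-07). The B-lymphoid-like cells of Dnmt3a 4 lie in the Dnmt3a group.

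Genes outside the list whose levels over the 91 sums most resembled each factor were named by Pearson correlation on the log2(CPM + 1) scale among 7797 genes. They were Sept8, Icam4 and Mfsd2b for Gata1 (0.94, 0.91 and 0.91), Slc18a2, Rab37 and Slc22a3 for Gata2 (0.95, 0.93 and 0.92), and Epdr1, Gm15915 and Ces2g for Klf1 (0.93, 0.92 and 0.92). For Zfpm1 they were Slc14a1, Car2 and Gp5 (0.92, 0.89 and 0.87), for Tal1 C530008M17Rik, Icam4 and Cela1 (0.92, 0.91 and 0.90), and for Gfi1b Sept8, Vamp5 and Aldh1a1 (0.94, 0.94 and 0.90). Nfe2 was most like G430095P16Rik, Frrs1 and Klhl23 (0.92, 0.90 and 0.89) and Fli1 most like Atp2a3, Ncoa3 and Plek (0.93, 0.90 and 0.86).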

How the data were processed

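The authors deposited 10x gene-by-cell matrices of raw UMI counts, 1 per library. The submitters' processing notes name bcl2fastq 2.20.0.422, Cell Ranger 6.0.0 and the mm10 (GRCm38) build. Sequences of the genes were not used here. Cells with at least 1000 UMIs, 500 genes and under 10% mitochondrial UMIs were kept, and doublets were removed by a simulated-neighbour score at 0.8% per 1000 cells (scikit-learn 1.9.0; 31 to 480 per library). Counts were summed per library and lineage, with at least 20 cells, and tested with edgeR 4.0.16 (quasi-likelihood, TMM, filterByExpr, 4 groups in 1 fit, Benjamini-Hochberg over all genes; R 4.3.3). CPM is the count per 1e6 summed UMIs, without the TMM factor. Kept libraries held 57710969 to 146555192 UMIs. Values at fixed makeup were tested with limma 3.58.1, without a TMM factor, and shares and ratios with exact permutation (scipy 1.17.1). Lineage names were rebuilt from markers, not taken from the authors.

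The members, lists and tests were chosen with earlier results of these data known. Named genes were all 8 members, up to 4 called genes per list (at least 10 CPM in either group), the targeted genes, and the 3 most alike genes per member. In counts simulated for Dnmt3a against MxCre over 15608 genes, edgeR recovered 73% of 2-fold and 100% of 4-fold changes with 13 false calls. The simulation gave every gene the same set spread, not that of the real gene, so it does not give the power for the members. Alternatives were DESeq2 1.42.0, RLE scaling, no count filter, 2-group fits, a replicate block, kept doublets, gates of 2 or 4 markers, at least 3000 UMIs, gates after thinning, a pseudocount of 5, and leaving out each mouse.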

Additional observations from a re-analysis of the deposited data

Results flagged for a closer look

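In 4 of 74 groups of 4 mice, 1 mouse stood far from the other 3; chance alone gives about 1 group in 20. All 4 were in the Dnmt3a;Tnfr2KO group. Tal1 in all cells was 31.5 CPM in Dnmt3a;Tnfr2KO 2, where the other 3 mice had 19.5 to 21.0 CPM. Zfpm1 in erythroid-like cells was 124 CPM in Dnmt3a;Tnfr2KO 1, where the others had 142 to 145 CPM. Fli1 in megakaryocyte-like cells was 79.5 CPM in Dnmt3a;Tnfr2KO 4, where the others had 200 to 223 CPM. Klf1 in HSC/MPP-like cells was 8.05 CPM in Dnmt3a;Tnfr2KO 3, where the others had 2.23 to 2.61 CPM.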

How the results depend on the processing

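Each of the 8 genes was counted in every all-cell sum. Counts of called genes depended on the tool. DESeq2 called 3 of 8 genes in all cells for Dnmt3a against MxCre and 2 for Dnmt3a;Tnfr1KO against MxCre, where edgeR called 0. Of the gene and lineage pairs for Dnmt3a against MxCre, 1 was called by DESeq2, 1 without the count filter, 1 with a gate of 4 markers and 1 when unassigned, granulocyte-like and monocyte-like cells were added; for Dnmt3a;Tnfr2KO against MxCre it was 1 by DESeq2 and 2 without the filter. For Fli1 in HSC/MPP-like cells of Dnmt3a against MxCre these gave adjusted p of 0.0392, 0.00427 and 0.0226. Of all gene and lineage pairs, DESeq2 called 2.01% (Dnmt3a against MxCre) and 0.459% (Dnmt3a;Tnfr2KO against MxCre). The shares of all pairs under the other settings are not given here, so their counts have no background beside them. Over all genes, Dnmt3a against MxCre gave 383 calls by edgeR, 1490 by DESeq2, 143 with the replicate block and 12 from the 2 groups alone; leaving out 1 mouse gave 44 (MxCre 1), 1 (MxCre 2), 3 (MxCre 3), 1 (Dnmt3a 1), 1235 (Dnmt3a 2), 39 (Dnmt3a 3), 507 (Dnmt3a 4) and 28 to 268 without a double mutant mouse. At fixed makeup 833 became 59, 4 and 14 without MxCre 1, 2 and 3, 1690 without Dnmt3a 2, 1266 without Dnmt3a 4, 323 to 651 without a double mutant mouse, and 239 with the replicate block. Same-numbered mice did not deviate together (19 pairs, median correlation -0.02, 7 above 0.1), 4 of 14 libraries correlated best with their own number, and with the replicate block 0 of 8 genes in all cells, 0 of 32 pairs and 0 of 8 at fixed makeup were called in all 6 comparisons.

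Leaving out 1 mouse at a time gave 0 to 1 called genes in all cells for Dnmt3a against MxCre (Fli1 without MxCre 1, Nfe2 without Dnmt3a 2) and 0 to 1 for Dnmt3a;Tnfr2KO against MxCre (Fli1 without MxCre 1). The counts over all genes for Dnmt3a without those mice are given above. For Dnmt3a;Tnfr2KO against MxCre, leaving out 1 mouse gave 24 to 161 calls over all genes. For pairs of a gene and a lineage in Dnmt3a against MxCre, leaving out 1 mouse gave 0 to 1 calls. The count changed in 2 cases, among them that without MxCre 1. The share of all pairs called in those cases is not given here, so this count has no background beside it. At fixed makeup it gave 0 to 1 genes for Dnmt3a;Tnfr1KO against Dnmt3a (Tal1 without Dnmt3a 3, where 9.39% of all genes were called). All log2 fold changes of the 8 genes against MxCre in all cells kept their sign under every setting run at the observed makeup. At fixed makeup with all mice, the highest of these fold changes was above 0 in Dnmt3a (0.10, Klf1) and in Dnmt3a;Tnfr2KO (0.09).

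No share difference between mutant groups, and none for basophil/mast-like cells, was past a threshold, and several changed sign; the cause was not tested. In percentage points, a gate of 4 markers gave -0.154 (erythroid-like, Dnmt3a;Tnfr1KO against Dnmt3a), -0.539 (erythroid-like, Dnmt3a;Tnfr2KO against Dnmt3a), -0.236 (megakaryocyte-like, Dnmt3a;Tnfr2KO against Dnmt3a), 0.00892 (basophil/mast-like, Dnmt3a;Tnfr2KO against MxCre) and -0.0152 (HSC/MPP-like, Dnmt3a;Tnfr2KO against Dnmt3a;Tnfr1KO). A gate of 2 markers gave 0.1496 (megakaryocyte-like, Dnmt3a;Tnfr1KO against Dnmt3a) and 0.0348 (HSC/MPP-like, Dnmt3a;Tnfr2KO against Dnmt3a). At least 3000 UMIs gave 0.0463 (megakaryocyte-like, Dnmt3a;Tnfr1KO against Dnmt3a), 0.0704 (basophil/mast-like, Dnmt3a;Tnfr2KO against MxCre) and -0.202 (HSC/MPP-like, Dnmt3a;Tnfr2KO against Dnmt3a;Tnfr1KO). Gates after thinning gave -0.0519 and -0.716 (erythroid-like, Dnmt3a;Tnfr1KO and Dnmt3a;Tnfr2KO against Dnmt3a) and 0.0150 and 0.107 (basophil/mast-like, the same groups against MxCre).

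Leaving out 1 mouse, erythroid-like differences ran from -2.84 to 2.89 (Dnmt3a;Tnfr1KO against Dnmt3a), -2.37 to 1.84 (Dnmt3a;Tnfr2KO against Dnmt3a) and -2.81 to 2.92 points (between the double mutants). In the same order of comparisons, megakaryocyte-like differences ran from -1.06 to 1.14, -0.486 to 1.72 and -0.0220 to 1.15 points, and HSC/MPP-like ones from -1.9995 to 0.230, -1.67 to 0.215 and -0.907 to 1.32 points. Basophil/mast-like differences ran from -0.0868 to 0.425 (Dnmt3a against MxCre), -0.349 to 0.102 (Dnmt3a;Tnfr1KO against MxCre), -0.189 to 0.262 (Dnmt3a;Tnfr2KO against MxCre), -0.280 to 0.0559 (Dnmt3a;Tnfr2KO against Dnmt3a) and -0.0141 to 0.274 points (between the double mutants). The Gata2 to Gata1 log2 ratio differed by -0.86 to 0.0899 (Dnmt3a against MxCre), -0.37 to 0.58 (Dnmt3a;Tnfr1KO against Dnmt3a), -0.57 to 0.37 (Dnmt3a;Tnfr2KO against Dnmt3a) and -0.38 to 0.0679 (between the double mutants).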
